A study of Homo sapiens with 6 samples.

Results

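The genes described here make, take in, store and export cholesterol. They were followed in cells labelled Hep3B, a hepatocellular carcinoma line, by RNA sequencing after knockdown of HYOU1, a chaperone gene of the endoplasmic reticulum (ER) whose product belongs to the HSP70 family. The members are 32 genes chosen by name from the 58735 genes of the deposited table, and each name matched 1 row. They comprise 20 enzymes of synthesis, 4 genes of the sterol-sensing control, 5 genes of uptake and transport inside the cell, and 3 genes of storage and efflux. All 6 libraries carry a short hairpin RNA (shRNA): in the labels 3 carry a control shRNA and 3 an shRNA against HYOU1, with no other treatment, time or drug named. The labels do not say how the shRNA was delivered, whether more than 1 hairpin or clone was used, or whether replicates came from separate cultures, so p-values reflect the spread between these libraries alone, which may be technical.

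Cholesterol is built from acetyl-CoA through mevalonate, isoprenoid diphosphates, squalene and lanosterol, mostly by enzymes of the ER membrane. When ER cholesterol is low, SCAP escorts the transcription factor precursor SREBP2 to the Golgi, where proteases release it to activate genes of synthesis and uptake. INSIG proteins hold SCAP in the ER when sterols are plentiful. Surplus cholesterol is esterified by SOAT enzymes for storage in lipid droplets or exported by ABC transporters, several of which are targets of the oxysterol receptor LXR.

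Promoters are shown for members whose levels are described below, because SREBP2 is known to act near the start of its target genes together with NF-Y, a factor that binds CCAAT boxes. RefSeq promoters on GRCh38.p14, each from 250 bases before to 50 bases after a transcript start, were found for 27 of the 32 members, with 36 promoters in all. ACAT2, FDFT1, SQLE, SCARB1 and ABCG1 were not matched. Each sequence runs 5′ to 3′ on the strand of its gene, and capitals mark CCAAT boxes and sterol regulatory elements on either strand. HMGCS1 (its upstream promoter of 2, chr5:43313363-43313662 on the minus strand) and INSIG1 (chr7:155297628-155297927 on the plus strand) were called higher after HYOU1 knockdown. MSMO1 (chr4:165327419-165327718 on the plus strand) was not called and is shown for its CCAAT boxes and shorter sterol element. SREBF2 (chr22:41832855-41833154 on the plus strand) is the gene of SREBP2 itself, and SOAT1 (chr1:179293547-179293846 on the plus strand) had the largest decrease among the tested members.
HMGCS1: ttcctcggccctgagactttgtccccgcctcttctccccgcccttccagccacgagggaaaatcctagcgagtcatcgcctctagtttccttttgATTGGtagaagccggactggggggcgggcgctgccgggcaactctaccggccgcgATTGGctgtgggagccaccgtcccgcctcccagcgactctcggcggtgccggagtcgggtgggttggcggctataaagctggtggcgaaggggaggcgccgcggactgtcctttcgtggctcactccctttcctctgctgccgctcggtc
INSIG1: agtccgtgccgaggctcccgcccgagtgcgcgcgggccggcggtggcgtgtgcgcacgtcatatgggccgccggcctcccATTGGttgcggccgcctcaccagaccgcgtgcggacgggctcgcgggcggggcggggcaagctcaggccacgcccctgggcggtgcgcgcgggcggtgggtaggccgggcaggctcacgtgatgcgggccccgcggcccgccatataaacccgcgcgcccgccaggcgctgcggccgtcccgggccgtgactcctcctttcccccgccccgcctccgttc
MSMO1: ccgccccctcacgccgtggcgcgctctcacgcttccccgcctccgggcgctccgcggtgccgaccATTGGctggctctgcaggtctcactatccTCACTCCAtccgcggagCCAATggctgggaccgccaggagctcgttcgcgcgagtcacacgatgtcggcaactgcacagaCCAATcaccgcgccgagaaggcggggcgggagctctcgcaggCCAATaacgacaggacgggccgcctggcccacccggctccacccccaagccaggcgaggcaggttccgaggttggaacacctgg
SREBF2: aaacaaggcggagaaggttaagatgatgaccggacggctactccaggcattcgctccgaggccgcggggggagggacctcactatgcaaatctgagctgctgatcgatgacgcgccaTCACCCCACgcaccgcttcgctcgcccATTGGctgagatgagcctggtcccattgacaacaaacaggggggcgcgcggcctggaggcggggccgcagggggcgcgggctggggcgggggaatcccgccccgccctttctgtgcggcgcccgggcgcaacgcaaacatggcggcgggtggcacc
SOAT1: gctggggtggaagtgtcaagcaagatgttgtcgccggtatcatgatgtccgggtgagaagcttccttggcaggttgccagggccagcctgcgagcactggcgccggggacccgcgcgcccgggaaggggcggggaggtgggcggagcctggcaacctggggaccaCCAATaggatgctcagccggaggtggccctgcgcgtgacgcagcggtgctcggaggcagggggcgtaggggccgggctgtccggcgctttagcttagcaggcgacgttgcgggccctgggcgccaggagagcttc

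The sterol regulatory element was searched as TCACNCCAC on both strands. It was present in 1 of the 36 member promoters, that of SREBF2, where it begins at position -133 relative to the start, and in 1.13% of all 35116 promoters of the same length. A shorter form, TCACNCCA, which every longer match contains and which was added after the longer form had been seen in 1 member promoter only, was present in 3 member promoters (MVK, MSMO1 and SREBF2) and in 3.95% of all promoters. The CCAAT box, searched as CCAAT on both strands, was present in 22 of the 36 member promoters (61.1%) and in 34.6% of all promoters. The MSMO1 promoter holds 4 CCAAT boxes, that of HMGCS1 2, and those of INSIG1, SREBF2 and SOAT1 1 each. By gene, 20 of the 27 matched members had a CCAAT box. They were 3 of the 4 matched members called higher, 16 of the 21 not called, and SOAT1, the member called lower. The GC box GGGCGG, searched likewise, was present in 32 member promoters (88.9%) and in 45% of all promoters. All promoters were taken whether or not their genes were tested here, and windows of the same gene can overlap, as those of SC5D do. No member called higher or lower had either form of the sterol element in its matched promoters, and NPC1, called higher, had no CCAAT box there. FDFT1 and SQLE, also called higher, had no matched promoter and were not searched. A match is a description of the window, not a site of binding. A missing match does not show that no site exists, since only these exact letters within the window were searched.

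The libraries held 16893091 to 18233240 fragments as recovered from the deposited values. HYOU1 measured 37.6, 58.2 and 59.5 FPKM (fragments per kilobase of gene, scaled to library size) across control replicates 1 to 3, against 2.35, 2.32 and 2.37 FPKM across HYOU1 shRNA replicates 1 to 3, so every library matched its shRNA label. The label of the cell line was not matched in the same way, since Hep3B cells are known to express the hepatocyte genes ALB and AFP. RBP4 and VTN, 2 of 12, averaged 1 FPKM or more, ALB was at 0 fragments in every library, and AFP had 3 fragments in total, which goes against that label. Which line the cells are was not tested, and Hep3B is used here as the labels give it. The summed level of the 12 was 11.7 to 14.6 FPKM in control and 7.30 to 10.1 FPKM in HYOU1 shRNA libraries. All 4 biliary markers reached 1 FPKM, and their summed level was 51.9 to 58.5 FPKM in control and 63.6 to 67.9 FPKM in HYOU1 shRNA libraries, without overlap, though limma called none of the 4. Of 6 fibroblast and stellate markers 3 reached 1 FPKM, 1 was called higher and 1 lower, and the summed level was 9.19 to 10.6 and 9.17 to 9.54 FPKM. None of 4 immune or 4 endothelial markers reached 1 FPKM. Control replicate 1 stood apart, with a Pearson correlation across genes of 0.906 and 0.892 with control replicates 2 and 3, which correlated at 0.971 with each other (genes are not independent replicates). Control replicates 2 and 3 correlated more closely with the HYOU1 shRNA libraries, at 0.93 to 0.936, than with control replicate 1. Mitochondrial genes took 7.59%, 5.17% and 4.96% of fragments in control replicates 1, 2 and 3 and 3.39% to 3.84% in the HYOU1 shRNA libraries. The part of these markers, of mitochondrial RNA and of control replicate 1 in the differences below was not tested, beyond the fits without that library.

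The departure of control replicate 1 followed the base composition of the transcripts, and the members were spread across it. Their longest transcripts had a GC content of 34.2% to 64.2%, around the 48.8% median of all tested genes. Of 17 members below that median, 16 were higher in control replicate 1 than in the mean of control replicates 2 and 3, and CYP51A1 was the exception. Of 15 members above it, 13 were lower, and ACAT2 and NPC1 were the exceptions. Control replicate 1 differed from the other controls by 0.97 on the log2 scale for SC5D and by -1.04 for MVD, but by 0.007 for FDFT1, 0.025 for NPC1 and 0.035 for MYLIP. The called members and the counts are therefore also given without this library and after a correction for GC content, which would also take out any true group difference tied to GC content.

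**Figure D1:**
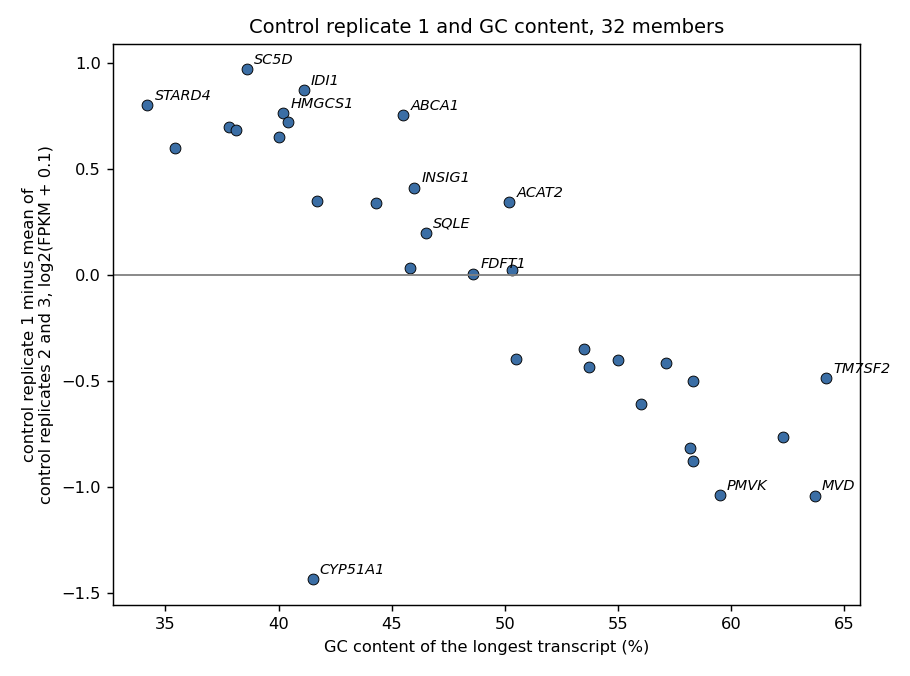
Difference between control replicate 1 and the mean of control replicates 2 and 3 on the log2(FPKM + 0.1) scale (vertical axis) against GC content of the longest transcript in percent (horizontal axis), 1 point for each of the 32 members. Points fall from above 0 at low GC content to below 0 at high GC content, FDFT1 lies at 0.007, and CYP51A1 lies apart at -1.44.

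Of the 31 members tested (those averaging 1 FPKM or more), 6 rose, 1 fell and 24 did not pass at an adjusted p under 0.05 (limma on log2(FPKM + 0.1), adjusted over all 12448 tested genes). HMGCS1, FDFT1, SQLE, INSIG1, MYLIP and NPC1 rose and SOAT1 fell. The share that rose was 19.4%, where 6.60% of all tested genes were called higher, and the share that fell was 3.23%, against 5.66% of all tested genes. The members were chosen with earlier results of these data known, so no share of members, here or below, shows an excess. The median log2 fold change of the 31 was 0.27, against 0.035 over all tested genes. In 15 members (48.4%) all HYOU1 shRNA libraries exceeded all controls, against 23.8% of all tested genes. In LBR and SOAT1, 2 of the tested members (6.45%), all were below all controls, against 20.6%. In either direction 12.3% of all tested genes were called and 44.4% did not overlap. In these bulk libraries fewer cells of a type and less RNA per cell cannot be told apart. The remaining member, ABCA1, had a mean under 1 FPKM and was not tested.

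Without control replicate 1, 14 members were called higher (45.2%, where 24.6% of all tested genes were) and 5 lower (16.1%, where 19.7% were; 44.3% in either direction). After the GC correction 11 were called higher (35.5%, against 20.4%) and 4 lower (12.9%, against 20.2%; 40.6% in either direction). All 7 members called with 6 libraries kept their call and direction in both. Both fits called more of all tested genes, and the share of all called genes that kept their call was not taken. Leaving out any other library lowered the count of members called higher and the count of all genes called. Without control replicate 2, 2 members were called higher and 1 lower, among 357 genes called in all, and without control replicate 3, 4 and 1 among 1022. Leaving out HYOU1 shRNA replicate 1 gave 1 and 1 among 126. Without HYOU1 shRNA replicate 2 or 3, when 85 and 49 genes were called in all, limma called 0 members higher and 0 lower. At an unadjusted p under 0.05 (limma), 10 members were higher and 1 lower in each of those fits. The share of all tested genes at an unadjusted p under 0.05 was not taken, so no such count, here or below, shows an excess. With voom on the recovered fragments and all libraries, 9 were called higher (7.91% of all tested genes were) and 1 lower (6.60% were).

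**Figure D2:**
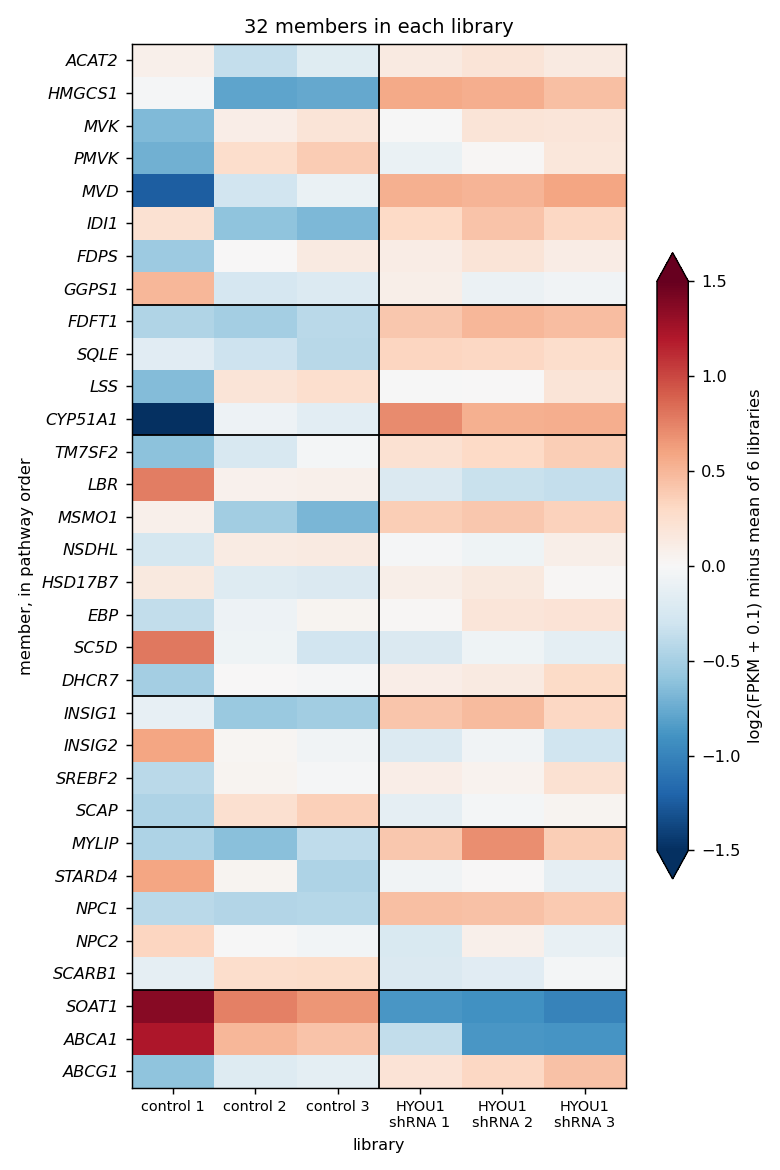
Each row is 1 of the 32 members in pathway order (horizontal lines separate the groups of genes) and each column 1 library; the colour gives log2(FPKM + 0.1) minus the member's mean over the 6 libraries, from blue (lower) to red (higher), with the scale ending at 1.5 in either direction. HMGCS1, FDFT1, INSIG1 and NPC1 are lower in the 3 control columns than in the 3 HYOU1 shRNA columns, SOAT1 and ABCA1 are higher there, and control replicate 1 differs from the other control columns in many rows.

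The mevalonate arm leads from acetyl-CoA to farnesyl diphosphate, and of its 8 members HMGCS1 rose about 2-fold. This 1 call makes 12.5% of the arm, where 6.6% of all tested genes were called higher. HMGCS1 (ENSG00000112972, chromosome 5, 43289395 to 43313512, minus strand, GRCh38), which condenses acetoacetyl-CoA and acetyl-CoA to HMG-CoA, measured 44.2, 25.8 and 26.1 FPKM across control replicates 1 to 3, against 66.2, 65.3 and 60.8 FPKM across HYOU1 shRNA replicates 1 to 3. The lowest knockdown library lay above the highest control. The means were 32.03 ± 10.5 and 64.1 ± 2.88 FPKM (mean ± SD of 3 libraries each), a log2 fold change of 1.05 ± 0.22 (SE; limma, adjusted p = 0.0321). Leaving out control replicate 1 gave 1.30 (adjusted p = 8.77e-06), and the GC correction 1.21 (adjusted p = 0.000105). The call was lost without control replicate 2 or 3 (adjusted p = 0.0924 and 0.0691) and without HYOU1 shRNA replicate 1, 2 or 3 (adjusted p = 0.134, 0.135 and 0.127), and also without a filter (adjusted p = 0.0715) and with quantile normalization (adjusted p = 0.0608).

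Of the other 7 members of this arm none passed with all libraries (limma; 2 of the 7, MVD and IDI1, had an unadjusted p under 0.05, and voom called MVD). MVD, which decarboxylates diphosphomevalonate to isopentenyl diphosphate, was at 6.07, 11.8 and 13.5 FPKM in controls and at 21.0, 20.7 and 21.8 FPKM after knockdown, without overlap. Its log2 fold change was 1.09 ± 0.29 (SE; adjusted p = 0.0587), 0.74 without control replicate 1 (adjusted p = 0.000184) and 0.66 after the GC correction (adjusted p = 0.000606). IDI1, the isomerase that provides dimethylallyl diphosphate, was at 32.3, 18.0 and 17.2 FPKM in controls and at 33.96, 37.2 and 34.3 FPKM after knockdown. The groups did not overlap, and control replicate 1 came nearest to the knockdown libraries. The difference of 0.70 (adjusted p = 0.113) became 0.99 without that library (adjusted p = 3.58e-05) and 0.85 after the GC correction (adjusted p = 0.00121).

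None of the remaining members of the arm passed with all 6 libraries. ACAT2, the cytosolic thiolase that makes acetoacetyl-CoA, was at 11.1 to 15.02 FPKM in controls and 15.7 to 16.3 FPKM after knockdown, a difference of 0.31 (adjusted p = 0.187) that crossed the threshold once control replicate 1 was left out, at 0.42 (adjusted p = 0.00252). ACAT2 shares 397 exon bases with TCP1 on the other strand, which was at a mean of 50.3 and 58.3 FPKM. On that strand it also shares 1141 with SOD2 (means of 0.0 and 0.0284 FPKM) and 1458 with SOD2-OT1 (0.0432 and 0.0322 FPKM). No source used here says whether counting used strand, so the value of ACAT2 is uncertain. MVK and PMVK, the kinases between HMG-CoA reduction and MVD, differed by 0.25 and 0.053 (adjusted p = 0.521 and 0.915). PMVK was at 15.5, 30.7 and 33.3 FPKM in controls and at 23.8, 25.9 and 28.8 FPKM after knockdown, and was called lower without control replicate 1, at -0.29 (adjusted p = 0.0267). FDPS, which makes farnesyl diphosphate, differed by 0.27 and GGPS1, which extends it to geranylgeranyl diphosphate outside the sterol route, by -0.031 (adjusted p = 0.362 and 0.934). Differences of MVK, GGPS1 and PMVK changed sign without control replicate 1. The values of MVK and GGPS1 are uncertain too, because MVK shares 306 exon bases with MMAB on the other strand, at a mean of 8.10 and 7.68 FPKM, and GGPS1 shares 1422 with TBCE on the same strand. Within this arm the levels after knockdown ran from 6.24 FPKM for MVK to 64.1 FPKM for HMGCS1.

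FDFT1 commits farnesyl diphosphate to sterols, SQLE acts next, and both were called higher with all 6 libraries. They make 50% of the 4 members of this arm, where 6.6% of all tested genes were called higher. FDFT1 (ENSG00000079459, chromosome 8, 11795573 to 11839309, plus strand), squalene synthase, measured 68.5, 65.5 and 71.0 FPKM across control replicates 1 to 3, against 124, 132 and 129 FPKM across HYOU1 shRNA replicates 1 to 3. The groups were far apart and control replicate 1 lay between the other controls. The means of 68.3 ± 2.74 and 128 ± 3.78 FPKM (mean ± SD of 3 libraries each) gave a log2 fold change of 0.91 ± 0.097 (SE; limma, adjusted p = 0.00554). FDFT1 moved from the fourth highest of the 32 members in controls to the highest after knockdown. Its difference was 0.91 without control replicate 1 (adjusted p = 3.67e-05) and 0.93 after the GC correction (adjusted p = 0.000123). Without HYOU1 shRNA replicate 2 or 3 the adjusted p was 0.0614 and 0.0571.

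SQLE (ENSG00000104549, chromosome 8, 124998497 to 125022283, plus strand), the epoxidase that acts on squalene, was at 27.6, 24.9 and 23.3 FPKM in controls and at 38.9, 38.5 and 37.2 FPKM after knockdown. All 3 knockdown libraries lay above all controls. The log2 fold change was 0.60 ± 0.11 (SE; limma, adjusted p = 0.0241). The call was lost without control replicate 2 or 3 (adjusted p = 0.0841 and 0.0592), without HYOU1 shRNA replicate 1, 2 or 3 (adjusted p = 0.127, 0.126 and 0.121), with quantile normalization (adjusted p = 0.0622) and without a filter (adjusted p = 0.0525). It was 0.66 without control replicate 1 (adjusted p = 0.000123) and 0.66 with the GC correction (adjusted p = 0.000306).

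The steps that follow differed from each other. LSS, which closes the rings to lanosterol, was at 13.4, 24.3 and 25.3 FPKM in controls and 21.2 to 24.2 FPKM after knockdown, with overlap (0.13, adjusted p = 0.743). CYP51A1, the lanosterol demethylase, was at 1.18, 3.45 and 3.26 FPKM in controls and at 6.03, 5.33 and 5.37 FPKM after knockdown. The groups did not overlap, and control replicate 1 was far below the other controls. The log2 fold change of CYP51A1 was 1.19 ± 0.39 (SE; adjusted p = 0.0952), 0.71 without control replicate 1 (adjusted p = 0.000791) and 1.33 after the GC correction (adjusted p = 0.0761). A second annotated gene, AC000120.2, shares 2844 exon bases with CYP51A1 on the same strand and was listed at 0, so the level of CYP51A1 is uncertain.

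The sterol arm turns lanosterol into cholesterol. Of its 8 members 0 rose and 0 fell (limma), where 6.6% and 5.66% of all tested genes were called higher and lower. At an unadjusted p under 0.05 (limma), 2 were higher and 1 was lower, and voom called MSMO1 higher. MSMO1, the monooxygenase that starts removal of the methyl groups from the sterol ring, was at 65.1, 42.8 and 38.4 FPKM in controls and at 79.8, 81.4 and 78.4 FPKM after knockdown. The groups did not overlap, and control replicate 1 was the highest control. Its log2 fold change was 0.75 ± 0.20 (SE; adjusted p = 0.0606), 0.98 without control replicate 1 (adjusted p = 3.41e-05) and 0.94 after the GC correction (adjusted p = 8.8e-05).

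TM7SF2 and LBR encode sterol reductases for the same double bond, and LBR is also a receptor for lamin B in the nuclear envelope. TM7SF2 was at 1.27, 1.69 and 1.96 FPKM in controls and at 2.36, 2.49 and 2.62 FPKM after knockdown, all above the controls. LBR was at 34.98, 21.4 and 21.6 FPKM in controls and at 17.7, 16.2 and 16.0 FPKM after knockdown, all below. The differences of 0.59 and -0.60 did not pass (adjusted p = 0.0927 and 0.108). Without control replicate 1 both passed, TM7SF2 at 0.43 (adjusted p = 0.0311) and LBR at -0.37 (adjusted p = 0.00324). After the GC correction LBR passed at -0.41 (adjusted p = 0.00236) and TM7SF2 was at 0.15 (adjusted p = 0.514). In both groups LBR stood at a higher FPKM than TM7SF2, which shares 16 exon bases with VPS51.

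The other 5 enzymes of the arm did not pass with all libraries. HSD17B7, a sterol ketone reductase, was at 9.48, 7.46 and 7.35 FPKM in controls and at 9.10, 9.43 and 8.67 FPKM after knockdown. It differed by 0.17 (adjusted p = 0.443) and crossed the threshold once control replicate 1 was left out, at 0.29 (adjusted p = 0.0161), and after the GC correction, at 0.31 (adjusted p = 0.0132). EBP, the sterol isomerase, had the highest level of the 32 members in controls, at 74.2, 90.7 and 98.3 FPKM, and was at 97.3, 108 and 111 FPKM after knockdown (0.27, adjusted p = 0.225). DHCR7, which catalyses the last reduction to cholesterol, was at 40.1 to 57.0 FPKM in controls and 61.0 to 69.4 FPKM after knockdown (0.34, adjusted p = 0.211). NSDHL, a sterol dehydrogenase, differed by 0.0003 and SC5D, a sterol desaturase, by -0.29 (adjusted p = 0.999 and 0.507). EBP, DHCR7, NSDHL and SC5D did not pass without control replicate 1 either (adjusted p between 0.0707 and 0.827).

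**Figure D3:**
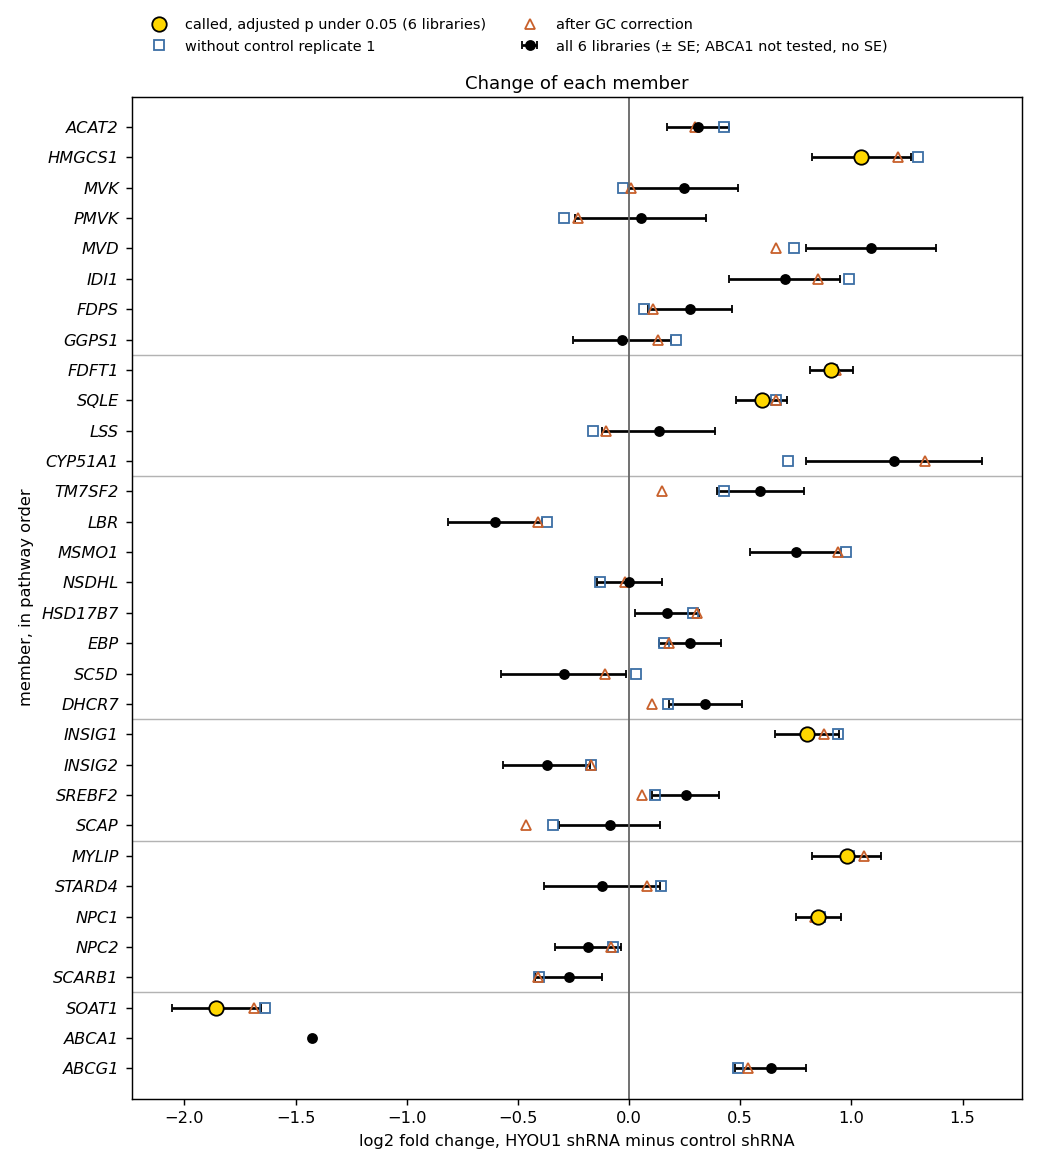
Log2 fold change of each member, HYOU1 shRNA minus control shRNA on the log2(FPKM + 0.1) scale, in pathway order. Black points with bars give the value with its standard error for all 6 libraries, gold points the 7 members called, squares the value without control replicate 1 and triangles the value after GC correction; FDFT1, NPC1 and MYLIP keep nearly the same place in all 3, while MVD, CYP51A1 and LBR shift.

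Of the 4 genes of SREBP2 control, INSIG1 rose (25%, where 6.6% of all tested genes did) and the rest did not pass. INSIG1 (ENSG00000186480, chromosome 7, 155297776 to 155310235, plus strand), itself a well-known SREBP target, measured 86.1, 63.9 and 65.6 FPKM across control replicates 1 to 3, against 125, 130 and 117 FPKM across HYOU1 shRNA replicates 1 to 3. The knockdown libraries all exceeded the highest control. The log2 fold change was 0.80 ± 0.14 (SE; limma, adjusted p = 0.0216), 0.94 without control replicate 1 (adjusted p = 3.81e-05) and 0.88 after the GC correction (adjusted p = 0.000416). It lost its call without control replicate 2 and without replicate 3 (adjusted p = 0.0748 and 0.0508), without HYOU1 shRNA replicate 1, 2 or 3 (adjusted p = 0.112, 0.116 and 0.0989) or with quantile normalization (adjusted p = 0.0535).

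INSIG2, its paralogue, was at 23.9, 16.2 and 15.3 FPKM in controls and at 13.7, 15.3 and 12.9 FPKM after knockdown, with overlap (-0.37, adjusted p = 0.241). Whether the changes of INSIG1 and INSIG2 differ was not tested. SREBF2, which encodes SREBP2, was at 33.5, 45.6 and 44.0 FPKM in controls and at 47.5, 46.2 and 52.1 FPKM after knockdown. Its log2 fold change of 0.25 did not pass (adjusted p = 0.287), nor did 0.12 without control replicate 1 (adjusted p = 0.204). SCAP was at 17.0, 27.8 and 30.1 FPKM in controls and at 21.4, 23.0 and 24.1 FPKM after knockdown, a difference of -0.087 (adjusted p = 0.813). SCAP was called lower without control replicate 1, at -0.34 (adjusted p = 0.00621), and after the GC correction, at -0.46 (adjusted p = 0.00129).

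Among 5 genes of uptake and transport inside the cell, MYLIP and NPC1 rose (40%, where 6.6% of all tested genes did). MYLIP (ENSG00000007944, chromosome 6, 16129125 to 16148248, plus strand), a ubiquitin ligase that sends lipoprotein receptors to degradation and a known LXR target, was at 2.53, 2.25 and 2.70 FPKM in controls and at 4.70, 5.78 and 4.60 FPKM after knockdown. Every knockdown library was above every control. The log2 fold change was 0.98 ± 0.16 (SE; limma, adjusted p = 0.0147), and the call was lost without control replicate 2 (adjusted p = 0.0615) and without HYOU1 shRNA replicate 1, 2 or 3 (adjusted p = 0.0809, 0.0885 and 0.0808). It was 0.99 without control replicate 1 (adjusted p = 0.000764) and 1.05 after the GC correction (adjusted p = 0.00122).

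NPC1 (ENSG00000141458, chromosome 18, 23506184 to 23586898, minus strand), the membrane protein that passes cholesterol out of lysosomes, was at 10.8, 10.6 and 10.7 FPKM in controls and at 19.6, 19.4 and 18.9 FPKM after knockdown. The spread within each group was small against the gap, with means of 10.7 ± 0.121 and 19.3 ± 0.369 FPKM (mean ± SD of 3 libraries each). The log2 fold change was 0.85 ± 0.10 (SE; limma, adjusted p = 0.00812), and the adjusted p was 0.0706, 0.0733 and 0.0708 without HYOU1 shRNA replicate 1, 2 or 3. Its difference was 0.86 without control replicate 1 (adjusted p = 4.67e-05) and 0.84 after the GC correction (adjusted p = 0.000253). NPC1 shares 604 exon bases with RMC1 on the other strand, which was at a mean of 6.13 and 5.995 FPKM.

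NPC2, the soluble lysosomal partner of NPC1, was at 26.7 to 34.2 FPKM in controls and 23.3 to 28.8 FPKM after knockdown (-0.18, adjusted p = 0.433). SCARB1, the receptor for high-density lipoprotein, was at 21.0, 27.7 and 27.9 FPKM in controls and at 19.8, 20.5 and 22.6 FPKM after knockdown. The groups overlapped only through control replicate 1. The difference of -0.27 (adjusted p = 0.261) was -0.41 without that library (adjusted p = 0.00257) and -0.41 after the GC correction (adjusted p = 0.00171). STARD4, a soluble sterol carrier, was at 6.44 to 13.5 FPKM in controls and 8.10 to 8.92 FPKM after knockdown (-0.12, adjusted p = 0.773).

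The largest change among the tested members was the fall of SOAT1. SOAT1 (ENSG00000057252, chromosome 1, 179293714 to 179358680, plus strand), the ER enzyme that esterifies cholesterol for storage, measured 96.1, 63.2 and 58.9 FPKM across control replicates 1 to 3, against 20.3, 19.9 and 18.5 FPKM across HYOU1 shRNA replicates 1 to 3. The highest knockdown library was far below the lowest control. The means were 72.7 ± 20.3 and 19.5 ± 0.910 FPKM (mean ± SD of 3 libraries each), a 3.72-fold lower level, and a log2 difference of -1.86 ± 0.20 (SE; limma, adjusted p = 0.00588). Among the 704 genes called lower, this was the 39th largest fall. SOAT1 went from the second highest of the 32 members in controls to rank 18 after knockdown. It was -1.64 without control replicate 1 (adjusted p = 4.87e-06) and -1.69 after the GC correction (adjusted p = 1.71e-05). The adjusted p was 0.0522 and 0.0545 without HYOU1 shRNA replicates 2 and 3.

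The differences of the 2 cholesterol exporters had opposite signs. ABCG1 did not pass, and ABCA1 lay under the filter and was not tested. ABCA1, which loads cholesterol onto lipid-poor apolipoproteins, was at 1.80, 1.05 and 1.00 FPKM in controls and at 0.531, 0.345 and 0.343 FPKM after knockdown. All knockdown libraries were below all controls, and the ratio of the means was 3.16. Its log2 fold change was -1.43 on a scale that understates changes of weakly expressed genes. When the 20512 genes averaging 0.1 FPKM or more were fitted, its adjusted p was 0.0455 (limma; 3.14% of those genes were called lower, 3.85% higher and 6.99% in either direction), and without any filter it was 0.0752. ABCG1, which passes cholesterol to high-density lipoprotein, was at 7.33, 9.79 and 10.1 FPKM in controls and at 13.0, 13.9 and 15.3 FPKM after knockdown, all above the controls. Its log2 fold change of 0.64 ± 0.16 (SE) lay just outside the threshold (limma, adjusted p = 0.0506) and crossed the threshold once control replicate 1 was left out, at 0.49 (adjusted p = 0.00206), and after the GC correction, at 0.53 (adjusted p = 0.00156). Both exporters are known LXR targets.

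**Figure D4:**
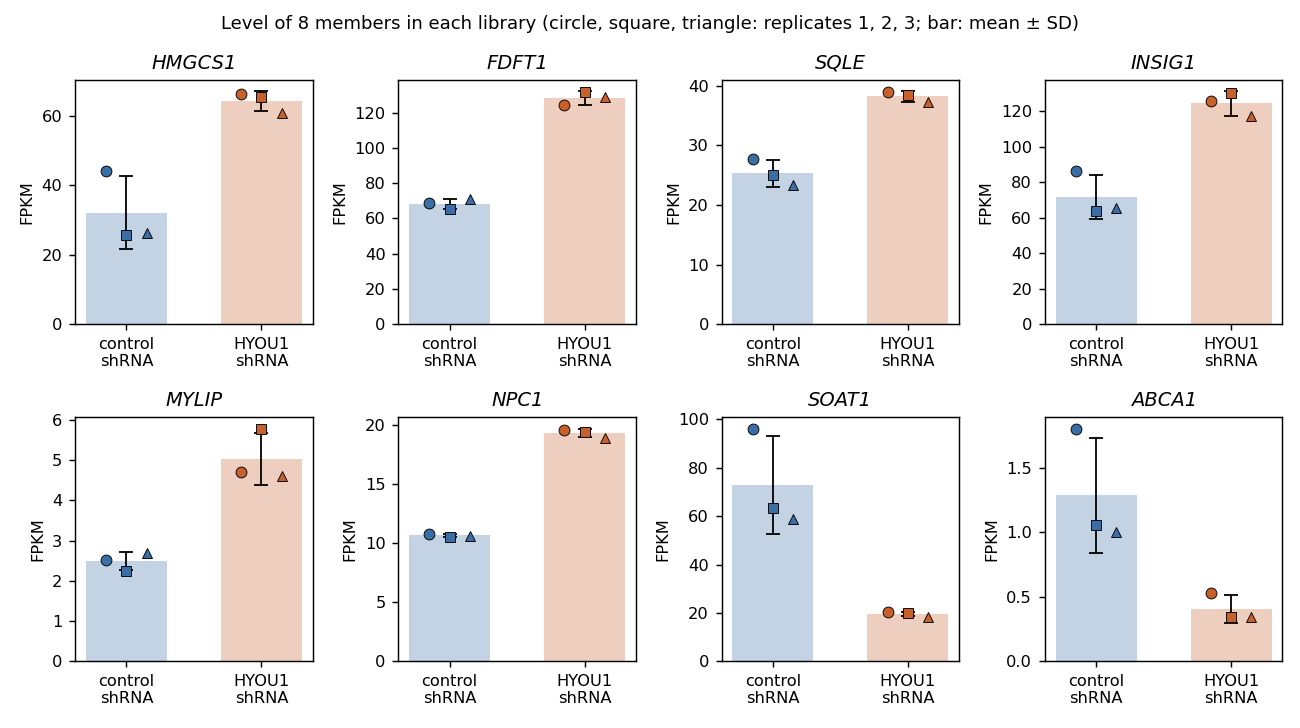
FPKM (vertical axis, starting at 0) of 8 members in each library, control shRNA in blue and HYOU1 shRNA in orange; circles, squares and triangles are replicates 1, 2 and 3, and bars give the mean ± SD of 3 libraries. HMGCS1, FDFT1, SQLE, INSIG1, MYLIP and NPC1 stand higher in the HYOU1 shRNA libraries, SOAT1 and ABCA1 lower, with no overlap between groups in any panel. The panels hold only the called members and ABCA1, while the groups overlapped in 14 of the 31 tested members.

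Other genes of cholesterol handling, in 6 lists that hold no member, are given beside the members. These lists too were chosen with earlier results of these data known, so their shares show no excess either. Of 80 genes 68 were tested, of which 3 rose, 6 fell and 59 did not pass (limma). These are shares of 4.41% and 8.82%, where 6.60% and 5.66% of all tested genes were called higher and lower, and the median log2 fold change was -0.058. Without control replicate 1, 19 were called higher and 19 lower (27.9% each, where 24.6% and 19.7% of all tested genes were). After the GC correction the counts were 18 and 20 (26.5% and 29.4%, against 20.4% and 20.2%). Without control replicate 3, 1 and 4 were called. Without control replicate 2 or any single HYOU1 shRNA library limma called 0 of them, where it called 49 to 357 of all genes, with 7 to 9 higher and 8 to 10 lower at an unadjusted p under 0.05.

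The isoprenoid branch, which uses intermediates of the mevalonate arm for other products, held 4 of the 6 falls. Of its 18 genes, all tested, 4 fell, 0 rose and 14 did not pass (limma; at an unadjusted p under 0.05, 7 were lower and 3 higher, and voom called 4 lower and 0 higher), with a median of -0.37. The 4 make 22.2% of the list, where 5.66% of all tested genes were called lower. Without control replicate 1, 7 were called lower (38.9%) and 4 higher (22.2%), and after the GC correction 8 (44.4%) and 3 (16.7%). Of all tested genes 19.7% and 20.2% were called lower in those 2 fits, and 24.6% and 20.4% higher. DOLK, the kinase that makes dolichyl phosphate for glycosylation, fell from 14.2 ± 3.19 to 6.33 ± 0.126 FPKM (mean ± SD of 3 libraries each), a log2 difference of -1.13 (limma, adjusted p = 0.0168). ZMPSTE24, a protease of prenylated proteins, fell by 1.12 and was at 29.3, 19.3 and 17.4 FPKM in controls and at 10.2, 10.1 and 9.28 FPKM after knockdown (adjusted p = 0.0230). ICMT, which methylates prenylated proteins, fell by 0.72 (adjusted p = 0.0144) and PDSS1, a subunit of the enzyme that makes the ubiquinone side chain, by 0.73 (adjusted p = 0.0406). DOLK and ICMT passed with 1 control replicate left out except replicate 2 (adjusted p = 0.0669 and 0.0634), and ZMPSTE24 likewise (adjusted p = 0.0641). All 4 were called lower without control replicate 1, and likewise with the GC correction. Without a filter ZMPSTE24 and PDSS1 were not called (adjusted p = 0.0535 and 0.0890). PDSS1 lost its call without control replicate 2 and without replicate 3 (adjusted p = 0.0726 and 0.0717). Leaving out any single HYOU1 shRNA library ended all 4 calls (adjusted p from 0.0896 to 0.170).

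In the list of SREBP processing and sterol-regulated degradation, 1 of 10 tested genes rose and 1 fell (10% each, where 6.6% and 5.66% of all tested genes did). Without control replicate 1, and likewise with the GC correction, 2 were called higher (20%) and 1 lower (10%). In those 2 fits 24.6% and 20.4% of all tested genes were called higher, and 19.7% and 20.2% lower. MBTPS1, the protease that makes the first cut in SREBP precursors, fell from 20.1 ± 0.967 to 14.3 ± 0.457 FPKM (mean ± SD of 3 libraries each), a log2 difference of -0.49 (limma, adjusted p = 0.0334). ERLIN1, an ER membrane protein of sterol-regulated degradation, rose from 11.1 ± 0.509 to 16.5 ± 0.387 FPKM, by 0.57 (adjusted p = 0.0232). Neither was called when any 1 library other than control replicate 1 was left out (adjusted p between 0.0580 and 0.163), or without a filter (adjusted p = 0.0720 for MBTPS1 and 0.0530 for ERLIN1).

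Of 18 tested genes of sterol transfer between membranes 1 rose (5.56%, where 6.6% of all tested genes did), OSBPL5, a lipid transfer protein of the oxysterol-binding family. Without control replicate 1, and likewise with the GC correction, 8 of the 18 were called higher (44.4%) and 3 lower (16.7%). In those 2 fits 24.6% and 20.4% of all tested genes were called higher, and 19.7% and 20.2% lower. OSBPL5 was at 5.13, 11.2 and 11.5 FPKM in controls and at 23.5, 23.4 and 27.6 FPKM after knockdown, a log2 difference of 1.49 (limma, adjusted p = 0.0321) and 1.11 without control replicate 1 (adjusted p = 5.77e-05). The lowest knockdown library was above the highest control. PLIN2, a coat protein of lipid droplets, was the 1 gene of 4 tested in the list of cholesteryl ester turnover that rose (25%). In each of those 2 fits 3 of the 4 were called higher (75%, against the 24.6% and 20.4% of all tested genes). PLIN2 went from 7.39 ± 0.905 to 10.8 ± 0.284 FPKM (mean ± SD of 3 libraries each), a log2 difference of 0.55 (limma, adjusted p = 0.0424). SOAT2, the other cholesterol-esterifying enzyme, was at a mean of 0.0091 FPKM in either group and was not tested. DAB2, an endocytic adaptor for lipoprotein receptors, was the 1 gene of 12 in its list that fell (8.33%, where 5.66% of all tested genes did). It fell by 0.78 (limma, adjusted p = 0.0241). In each of those 2 fits 5 of the 12 were called lower (41.7%, against 19.7% and 20.2% of all tested genes) and 1 higher (8.33%, against 24.6% and 20.4%). OSBPL5, PLIN2 and DAB2 were not called without control replicate 2 (adjusted p = 0.0648, 0.124 and 0.0617), PLIN2 also without control replicate 3 (adjusted p = 0.0894), and none of them without 1 of the HYOU1 shRNA replicates (adjusted p between 0.116 and 0.174). None was called without a filter (adjusted p = 0.0726 for OSBPL5, 0.0923 for PLIN2 and 0.0544 for DAB2), nor PLIN2 with quantile normalization (adjusted p = 0.0640). Of the 13 genes listed as oxysterol receptors and LXR targets 6 were tested, and the rest lay under the filter. The list also holds enzymes that make or clear oxysterols. Of the 6, limma called 0 higher and 0 lower. At an unadjusted p under 0.05 (limma), 1 was higher and 0 lower, and voom called 0. MYLIP, ABCA1 and ABCG1, LXR targets too, are members and are not in this list. Without control replicate 1, and likewise with the GC correction, 3 of the 6 were called lower (50%, against 19.7% and 20.2% of all tested genes) and 1 higher (16.7%, against 24.6% and 20.4%). Called lower in both fits were the receptor genes NR1H3 and RXRA and the LXR target LPCAT3, and called higher was the receptor gene RXRB.

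**Figure D5:**
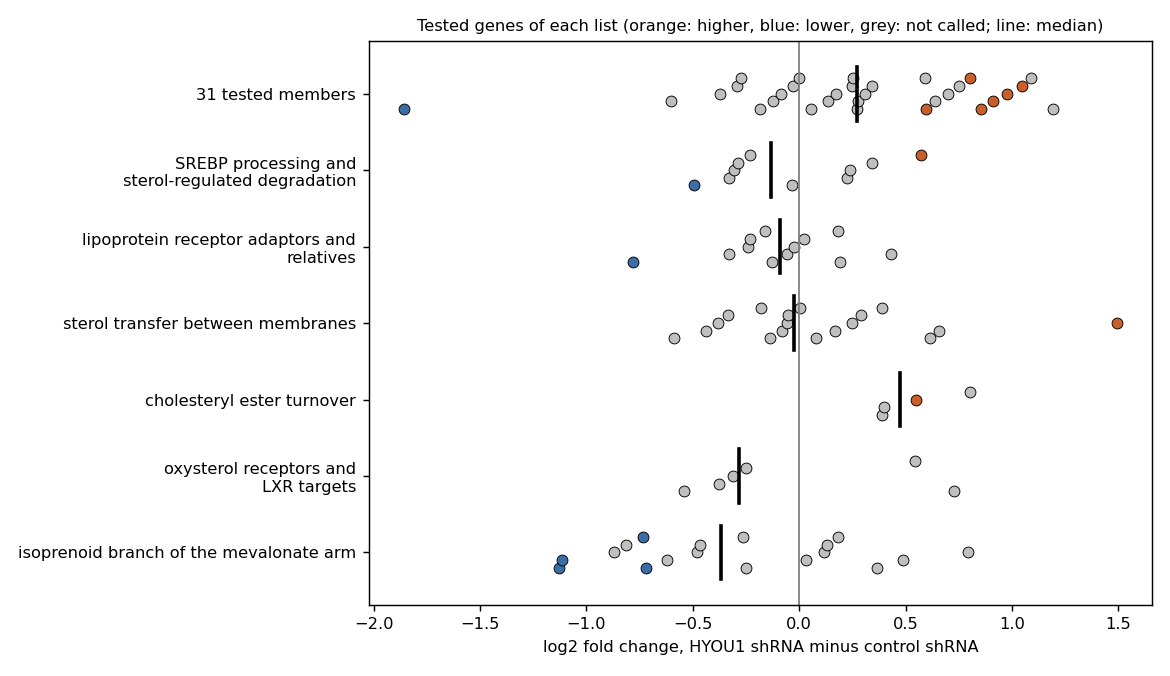
Each point is 1 tested gene, placed by its log2 fold change (HYOU1 shRNA minus control shRNA), with 1 row for the 31 tested members and 1 for each of the 6 lists; orange points were called higher, blue lower, grey not called, and black lines mark medians. The median lies at 0.27 for the members and at -0.37 for the isoprenoid branch.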

How the data were processed

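RNA of 6 libraries labelled Hep3B (3 with control shRNA, 3 with HYOU1 shRNA) was sequenced after oligo(dT) capture, per the labels' protocols. The authors deposited 1 table of FPKM values. The sources used here name neither the aligner and counter nor the use of strand. The 58735 gene identifiers all matched GENCODE 29 on GRCh38, and 58724 also matched in start and end. Also deposited was each gene length in bases. FPKM times gene length came in whole multiples of 1 step per library (tolerance 0.01 fragments), which gave 16893091 to 18233240 fragments per library, and 3 fragments were worth 0.160 to 0.176 FPKM for a gene of 1 kb. This floor covers counting error only.

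The 12448 genes that averaged 1 FPKM or more were put on the log2(FPKM + 0.1) scale and tested with limma 3.58.1 under R 4.3.3 (eBayes with trend and robust priors), with p-values adjusted over all of them (Benjamini-Hochberg) and a threshold of 0.05. Every adjusted p is from this test unless another is named. The GC correction removed, per library, a lowess trend (span 0.3) on GC content of the longest GENCODE transcript; 6 tested genes had no GC value. voom used the recovered fragments. The fit was tested on simulated data with 200 changed genes in each of 5 runs. Apart from the changed genes, the simulated libraries shared the same gene means. None departed along GC content as control replicate 1 did, so the simulation does not cover that departure. The members and lists were chosen with earlier results of these data known. All members are named, with values per library for those called or changed by at least 0.5 on the log2 scale, and for some others. Of the other lists the called genes are named, and SOAT2 beside SOAT1, which was chosen after its values were seen. Also named are the genes of the oxysterol receptor list that were called only without control replicate 1 or with the GC correction. LBR, SCAP, SCARB1 and other uncalled genes are described by values only.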

Additional observations from a re-analysis of the deposited data

How the results depend on the processing

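The 7 called members kept their direction under every setting, and ABCA1 under the 2 lower filters, the settings in which it entered the fit. The settings were pseudocounts of 1 and 0.01, a filter of 0.1 FPKM or none, TPM scaling, quantile normalization, the replicate block, GC correction, both together, voom, and leaving out each library. All genes called were 1526, and 770 without a filter, 940 with the replicate block, 5048 with GC correction, 4504 with both, and 49 to 5518 with 1 library left out. Members called higher were 6, and 3 with quantile normalization, 11 with GC correction, 11 with GC correction and the replicate block, and 0 to 14 with 1 library left out. Members called lower were 1, and 2 with a filter of 0.1, 4 with GC correction, 4 with GC correction and the replicate block, and 0 to 5 with 1 library left out. Other pathway genes called higher were 3, and 0 without a filter (18 at an unadjusted p under 0.05, limma), 1 with the replicate block, 18 with GC correction, 15 with both, 5 with voom, and 0 to 19 with 1 library left out. Other pathway genes called lower were 6, and 2 without a filter, 20 with GC correction, 17 with both, and 0 to 19 with 1 library left out. The causes of these changes were not tested.

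Differences that changed sign all had an absolute log2 value under 0.3 with all libraries and passed under none of the settings that turned them, except PMVK without control replicate 1. With GC correction, alone and with the replicate block, PMVK was at -0.23, GGPS1 at 0.13, LSS at -0.11, NSDHL at -0.019 and STARD4 at 0.079. Quantile normalization put PMVK at -0.023 and NSDHL at -0.095, TPM scaling put GGPS1 at 0.0070, a pseudocount of 1 put NSDHL at -0.0001 and voom put it at -0.0014. With 1 library left out, MVK ranged from -0.026 to 0.40, PMVK from -0.29 to 0.26, GGPS1 from -0.16 to 0.21, LSS from -0.16 to 0.29, NSDHL from -0.13 to 0.069, SC5D from -0.51 to 0.030, SCAP from -0.34 to 0.069 and STARD4 from -0.38 to 0.15.

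Deviations from the group means of same-numbered libraries correlated at 0.125, -0.093 and 0.17 for replicates 1, 2 and 3, so the numbers were not taken to pair the samples, and control replicate 2 did not correlate best with its own number. With the replicate number as a block 5 members were called higher and 1 lower. Calls lost with it were those of SQLE (adjusted p = 0.0543), MBTPS1 (0.0759), ERLIN1 (0.0630), PLIN2 (0.0784) and PDSS1 (0.0692). Few fragments stood behind CYP51A1 and TM7SF2 in control replicate 1 (72 and 74) and behind ABCA1 in HYOU1 shRNA replicates 2 and 3 (72 and 68).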
